A study of Mus musculus with 4 samples.

Results

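Transcription factors that are known as regulators of the lateral ganglionic eminence (LGE) or of striatal projection neurons were compared between control and *Dnmt1* KO cells sorted from the E14.5 mouse basal telencephalon. The set holds 10 genes, *Sp9*, *Meis2*, *Meis1*, *Zfp503*, *Foxp1*, *Foxp2*, *Bcl11b*, *Ikzf1*, *Ebf1* and *Six3*, which were chosen by name among the 56883 genes of the deposited table. Control embryos carried *Sst-Cre* and a Cre-dependent *tdTomato* reporter (*Sst-Cre/tdTomato*), and *Dnmt1* KO embryos carried loxP-flanked *Dnmt1* in addition (*Sst-Cre/tdTomato/Dnmt1 loxP2*). Both genotypes therefore share Cre and the reporter, and cells were sorted for tdTomato, which marks cells with a history of Cre from the *Sst* locus. There were 2 libraries per genotype, and each library pools several embryos. Since Cre is driven from the *Sst* locus, the design places the loss of *Dnmt1* after cells begin to express *Sst*, not in their progenitors.

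The LGE is a ventral germinal zone next to the medial ganglionic eminence (MGE), and its progenitors give rise to the projection neurons of the striatum. These neurons divide into a direct pathway, marked by dopamine receptor D1, and an indirect pathway, marked by dopamine receptor D2. Somatostatin interneurons arise from the MGE instead. Several of the 10 factors are also used outside the striatal lineage, as *Sp9* is in MGE-derived interneurons, *Ikzf1* and *Ebf1* in blood cells and *Meis* genes in many embryonic tissues.

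Whole reads recovered from the normalized counts came to 6970247 to 8376711 per library, and replicate libraries differed by more than counting noise. The targeted gene, *Dnmt1*, had a normalized count of 2238 and 2341 in control and of 2164 and 2210 in *Dnmt1* KO libraries, and this whole-gene count does not isolate the floxed exons. The labelled cell type was checked with *Sst*, *Lhx6* and *Gad1*, which were abundant, with mean normalized counts of 5772, 2696 and 1161 in control libraries. The MGE factor *Nkx2-1* was at 357 in control and 350 in *Dnmt1* KO libraries. Of 14 MGE and SST interneuron markers, 13 were higher in *Dnmt1* KO cells, all but *Nkx2-1*, and the summed level went from 24033 and 24344 to 38058 and 38327. Markers of other cells moved the opposite way. The summed level of 9 radial glia markers was 10829 and 10908 in control and 6722 and 6852 in *Dnmt1* KO libraries, with 6 called lower and 1 higher. For 8 excitatory neuron markers it was 2971 and 3023 against 1628 and 1491 (6 lower), for 8 dividing cell markers 5931 and 5777 against 4124 and 4176 (7 lower), and for 9 vascular and fibroblast markers 548 and 580 against 243 and 279 (7 of 8 tested lower). All 7 tested erythroid markers were lower, with a summed level of 2427 and 2260 against 571 and 569. In the 8 microglia and leukocyte markers it was 85.0 and 109 against 30.6 and 44.8, with 1 of 3 tested genes lower and *Cd79a* at 0 in all libraries. In bulk samples, fewer cells of a type and less RNA per cell cannot be told apart.

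The sequence before the start of 4 of the regulators is shown, since DNMT1 acts on CpG dinucleotides and these genes include both that rose and the least and an intermediate CpG content among those that fell. Each is the 250 bases upstream of the canonical GENCODE start, read from GRCm39 in the direction of transcription, with every CpG in capitals. *Sp9* (chr2:73102019-73102268, plus strand) and *Bcl11b* (chr12:107970418-107970667, minus strand) were higher in *Dnmt1* KO cells, and *Meis2* (chr2:115896321-115896570, minus strand) and *Foxp2* (chr6:14901037-14901286, plus strand) were lower.
Sp9: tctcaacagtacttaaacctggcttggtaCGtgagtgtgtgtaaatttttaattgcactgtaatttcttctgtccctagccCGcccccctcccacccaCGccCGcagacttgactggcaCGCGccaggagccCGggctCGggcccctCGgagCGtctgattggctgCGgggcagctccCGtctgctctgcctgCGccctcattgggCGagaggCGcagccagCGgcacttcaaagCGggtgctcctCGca
Bcl11b: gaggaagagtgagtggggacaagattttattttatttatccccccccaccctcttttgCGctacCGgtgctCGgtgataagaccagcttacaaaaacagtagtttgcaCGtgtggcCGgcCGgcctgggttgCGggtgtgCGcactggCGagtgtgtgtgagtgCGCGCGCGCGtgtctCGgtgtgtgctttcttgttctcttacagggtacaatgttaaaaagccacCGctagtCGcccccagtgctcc
Meis2: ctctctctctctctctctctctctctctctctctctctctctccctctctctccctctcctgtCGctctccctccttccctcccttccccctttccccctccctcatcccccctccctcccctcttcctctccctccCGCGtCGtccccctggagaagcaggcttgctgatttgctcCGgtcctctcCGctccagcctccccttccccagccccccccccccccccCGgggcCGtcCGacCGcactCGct
Foxp2: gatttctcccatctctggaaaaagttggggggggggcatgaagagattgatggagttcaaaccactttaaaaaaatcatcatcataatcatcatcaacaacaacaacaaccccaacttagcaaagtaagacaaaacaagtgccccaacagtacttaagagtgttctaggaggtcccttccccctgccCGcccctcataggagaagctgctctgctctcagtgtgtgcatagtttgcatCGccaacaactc

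These windows hold 18 CpG for *Sp9*, 17 for *Bcl11b*, 11 for *Meis2* and 2 for *Foxp2*. Over 12278 protein-coding genes tested, the median was 13, with quartiles at 8 and 20, so that 2.4% of promoters had fewer CpG than *Foxp2* and 68.0% fewer than *Sp9*. Among the other regulators, *Foxp1* had 37 CpG and *Ikzf1* 39, both in the top of the range, while *Zfp503* had 17, *Meis1* 15, *Ebf1* 12 and *Six3* 10. The regulators that fell in *Dnmt1* KO cells thus spanned 2 to 37 CpG, and both that rose lay within that span. Its upper end rests on *Foxp1* alone, since the others that fell held 2 to 12 CpG, fewer than those that rose. The canonical starts of *Foxp1*, *Six3*, *Zfp503*, *Meis1*, *Ikzf1* and *Meis2* lie inside their annotated spans. Their windows therefore lie within the annotated gene, only in part for *Meis2*. The span of *Foxp1* ends at 99499685 on the minus strand, and that of *Six3* begins at 85920640 on the plus strand. The GC box GGGCGG, the letters that Sp factors are known to bind, was searched on both strands and was found in 5 of the 10 windows and in 50.8% of all promoters, and the box itself holds a CpG. The core TGACAG, known for MEIS proteins, was found in 1 window, that of *Six3*, and in 13.6% of all promoters. DNA methylation was not analysed here, and some of these genes have further annotated starts.

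**Figure D1:**
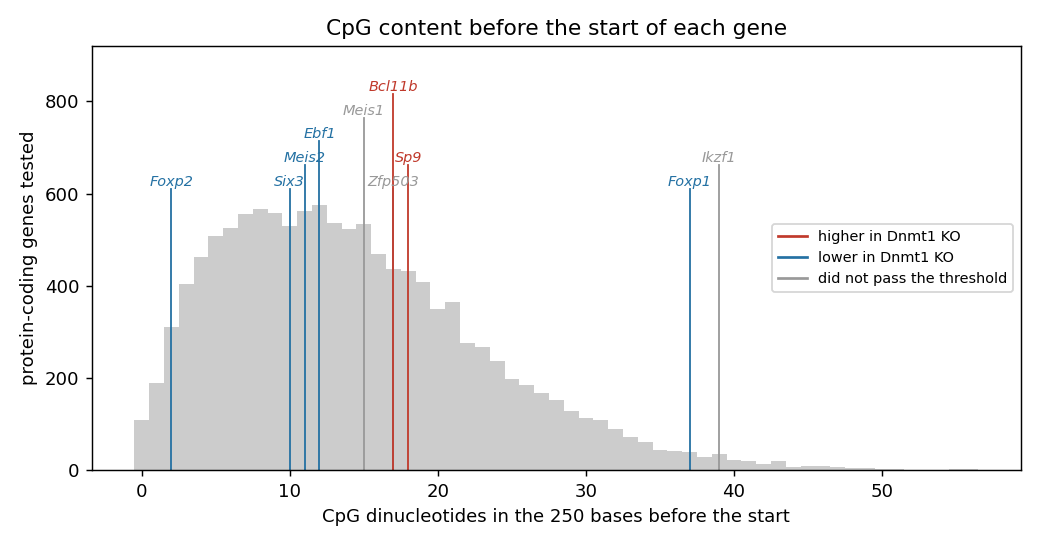
Number of CpG dinucleotides in the 250 bases before the canonical start (horizontal axis) for the protein-coding genes tested (grey bars, number of genes), with lines for the 10 regulators coloured by their difference between genotypes. The regulators range from 2 CpG for *Foxp2* to 39 for *Ikzf1*, and among the genes that fell only *Foxp1* lies above those that rose.

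Expression of the 10 regulators differed in both directions. In *Dnmt1* KO cells, *Sp9* and *Bcl11b* were higher, and *Meis2*, *Foxp1*, *Foxp2*, *Ebf1* and *Six3* fell by 24.7% to 34.4%. *Meis1*, *Zfp503* and *Ikzf1* did not pass the threshold, which was limma's p below 0.05 after adjustment over all 14323 genes tested. Thus 2 of 10 regulators were called higher, where 8.3% of all genes tested were, and 5 of 10 lower, where 8.99% were. In either direction, 7 of 10 were called against 17.3% of all genes tested. All 10 regulators passed the filter, an average of 10 or more normalized counts across libraries, and each had a mean above 10 in both genotypes. The median log2 fold change of the 10 was -0.45, against -0.0033 over all genes tested. Normalized counts of the genotypes did not overlap for 8 of the 10 regulators, nor did they for 57.4% of all genes tested. The 10 genes were listed with results of these libraries known, so these counts describe the set and do not test it.

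**Figure D2:**
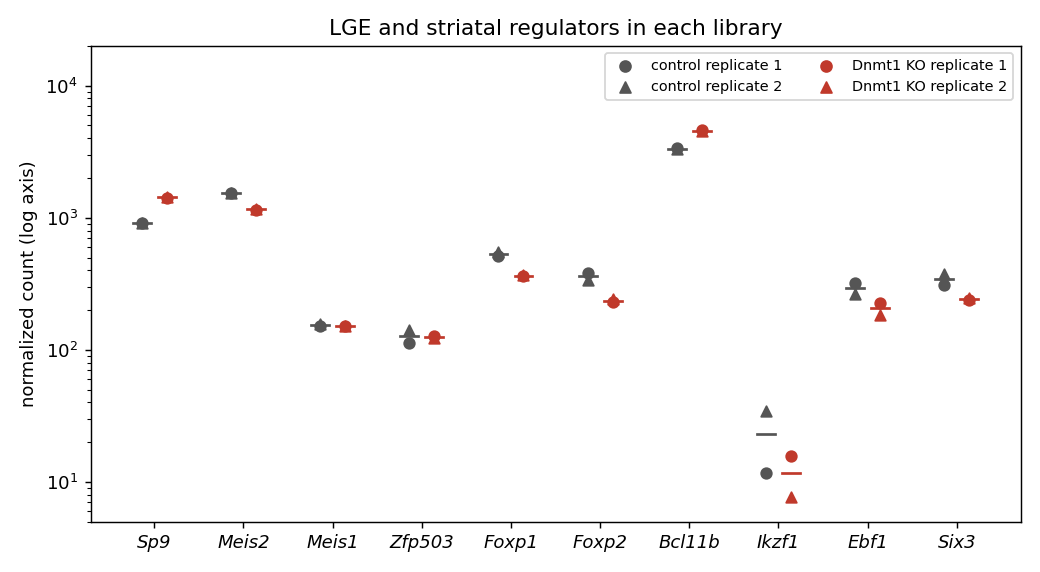
Normalized count (log axis) of each regulator in the 2 control (grey) and 2 *Dnmt1* KO (red) libraries, circles for replicate 1, triangles for replicate 2 and lines for group means. *Sp9* and *Bcl11b* are higher in both *Dnmt1* KO libraries, the genotypes overlap for *Zfp503* and *Ikzf1*, and *Ikzf1* is the lowest of the 10.

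Among regulators active throughout the LGE, *Sp9* rose and *Meis2* fell. *Sp9* (ENSMUSG00000068859), a zinc finger factor needed for indirect pathway neurons and also made in MGE-derived interneurons, lies on chromosome 2 from 73102269 to 73115050. It had 911 and 915 normalized counts in the control and 1419 and 1435 in the *Dnmt1* KO libraries. The replicates of each genotype nearly coincided, and the groups lay far apart. *Sp9* was 1.56-fold higher in *Dnmt1* KO cells, or 0.64 ± 0.064 (standard error) on the log2 scale (95% interval 0.51 to 0.78, limma's adjusted p = 6.31e-06).

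*Meis2* (ENSMUSG00000027210), a TALE homeodomain factor that binds DNA together with PBX proteins, lies on chromosome 2 from 115693062 to 115896341. Control libraries held 1532 and 1547 normalized counts, and *Dnmt1* KO libraries held 1144 and 1175. All control values lay above all *Dnmt1* KO values, and *Meis2* was 1.33-fold lower in *Dnmt1* KO cells (-0.41 ± 0.062 standard error on the log2 scale, limma's adjusted p = 0.000278). The ratio of *Sp9* to *Meis2* within a library, which does not depend on the scaling of the library, was 0.595 and 0.591 in control and 1.24 and 1.22 in *Dnmt1* KO libraries. *Sp9* was therefore counted below *Meis2* in control cells and above it in *Dnmt1* KO cells.

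*Meis1* (ENSMUSG00000020160), the paralog of *Meis2* on chromosome 11 from 18829817 to 18969749, was counted at 152 and 157 in control and at 151 and 151 in *Dnmt1* KO libraries. The control values lay slightly above the *Dnmt1* KO values, by less than limma's standard error of 0.14, with a log2 fold change of -0.036 and a 95% interval from -0.34 to 0.27 (limma's adjusted p = 0.901). The ratio of *Meis2* to *Meis1* was 10.1 and 9.84 in control and 7.58 and 7.79 in *Dnmt1* KO libraries. *Zfp503* (ENSMUSG00000039081), also called Nolz1, a zinc finger repressor of the developing striatum on chromosome 14 from 22033983 to 22039669, had 113 and 142 normalized counts in control and 126 and 123 in *Dnmt1* KO libraries. The *Dnmt1* KO values fell between the control values (log2 fold change -0.019, 95% interval -0.37 to 0.34, limma's adjusted p = 0.959). For both genes the sign changed under quantile normalization, and for *Zfp503* also without control replicate 2 and with the length and GC trend removed.

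Of the regulators of striatal projection neurons, both *Foxp* genes fell and *Bcl11b* rose. *Foxp1* (ENSMUSG00000030067), a forkhead repressor made in projection neurons of both pathways, lies on chromosome 6 from 98902299 to 99499685. It had 511 and 554 normalized counts in the control and 362 and 367 in the *Dnmt1* KO libraries, without overlap. *Foxp1* was 1.46-fold lower in *Dnmt1* KO cells (-0.54 ± 0.092 standard error on the log2 scale, limma's adjusted p = 0.000773). *Foxp2* (ENSMUSG00000029563), its paralog on the same chromosome from 14901287 to 15441976, was counted at 381 and 339 in control and at 229 and 243 in *Dnmt1* KO libraries. It fell by 0.61 ± 0.11 (standard error) on the log2 scale (limma's adjusted p = 0.00147). Within a library, the ratio of *Foxp1* to *Foxp2* was 1.34 and 1.64 in control and 1.58 and 1.51 in *Dnmt1* KO libraries, so that the genotypes overlapped.

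*Bcl11b* (ENSMUSG00000048251), also called Ctip2, a zinc finger factor needed for the differentiation of striatal projection neurons and made in other forebrain neurons too, lies on chromosome 12 from 107876656 to 107970417. With 3349 and 3317 normalized counts in control and 4596 and 4514 in *Dnmt1* KO libraries, it had the highest count of the 10 regulators in every library. *Bcl11b* was 1.37-fold higher in *Dnmt1* KO cells, or 0.45 ± 0.046 (standard error) on the log2 scale (limma's adjusted p = 8.19e-06). The ratio of *Bcl11b* to *Foxp1* was 6.56 and 5.98 in control and 12.7 and 12.3 in *Dnmt1* KO libraries. The summed level of the 10 regulators was 7596 and 7648 in control and 8510 and 8444 in *Dnmt1* KO libraries, so the sum was higher with 2 regulators called higher and 5 called lower.

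*Ikzf1* (ENSMUSG00000018654), the Ikaros zinc finger factor of lymphoid cells that is also made in a subset of striatal neurons, lies on chromosome 11 from 11634980 to 11723186 and was close to the limit of detection. It had 13 and 34 reads in the control and 16 and 7 reads in the *Dnmt1* KO libraries, or 11.6, 34.7, 15.8 and 7.65 normalized counts. Control replicate 2 was high, while control replicate 1 lay between the *Dnmt1* KO libraries (log2 fold change -0.82, 95% interval -1.97 to 0.33, limma's adjusted p = 0.341). Without control replicate 2 the log2 fold change was -0.069. Of the 3 tested microglia and leukocyte markers, *Cx3cr1* had 10.7 and 34.7 normalized counts in control and 6.90 and 8.74 in *Dnmt1* KO libraries and was highest in control replicate 2. *Csf1r* with 40.3 and 34.7 and *C1qb* with 16.1 and 15.3 in control were highest in control replicate 1, and with 10.8 and 16.4 and with 9.86 and 10.9 they were lower in both *Dnmt1* KO libraries. The part of these cells in the value of *Ikzf1* was not tested.

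*Ebf1*, listed for the direct pathway, and *Six3*, listed for the indirect pathway, were lower, while *Sp9*, also needed in the indirect pathway, was higher. *Ebf1* (ENSMUSG00000057098), a factor of direct pathway neurons that also acts in B cells and vascular cells, lies on chromosome 11 from 44508138 to 44898918. *Ebf1* had 322 and 266 normalized counts in control and 228 and 184 in *Dnmt1* KO libraries. The groups did not overlap, but the lower control and the higher *Dnmt1* KO library were close together (-0.52 ± 0.14 standard error on the log2 scale, limma's adjusted p = 0.0164). Without control replicate 1 the log2 fold change was -0.38 (limma's adjusted p = 0.164), and without *Dnmt1* KO replicate 2 it was -0.36 (limma's adjusted p = 0.0961), so the call rested on these libraries. The vascular and fibroblast markers, of which 7 of 8 tested were lower, moved with *Ebf1*, and their part in its value was not tested.

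*Six3* (ENSMUSG00000038805), a homeodomain factor needed for indirect pathway neurons, lies on chromosome 17 from 85920640 to 85936730. It was counted at 312 and 377 in control and at 239 and 246 in *Dnmt1* KO libraries. Both *Dnmt1* KO values lay below both control values, or -0.50 ± 0.12 (standard error) on the log2 scale (limma's adjusted p = 0.00805). Without control replicate 2 it was -0.37 (limma's adjusted p = 0.112). *Six3os1*, an RNA transcribed from the opposite strand across *Six3* and named here for that overlap after its values were seen, had 155 and 128 against 109 and 117 normalized counts (log2 fold change -0.32, adjusted p = 0.212 from limma). The libraries were made with a stranded kit, but whether genes were counted by strand is not given in the sources used here, so the count of *Six3* is uncertain to that extent. The same holds for *Sp9*, whose annotated span overlaps *Cir1* on the opposite strand (227 and 281 against 316 and 263 normalized counts).

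DESeq2's Wald test on recovered reads, the test the study used, called 5 of the 10 regulators, *Sp9*, *Bcl11b*, *Meis2*, *Foxp1* and *Foxp2*, where it called 9.38% of the genes to which it gave an adjusted p. It gave *Ikzf1* no adjusted p. It did not call *Ebf1* (adjusted p = 0.114 from DESeq2) or *Six3* (adjusted p = 0.0697 from DESeq2). For *Ebf1* and *Six3* its log2 fold changes were close to those of limma, at -0.52 and -0.51. Over 17 alternatives the adjusted p of *Ebf1* lay between 0.000389 and 0.201 and that of *Six3* between 0.000518 and 0.143. *Sp9*, *Bcl11b*, *Meis2*, *Foxp1* and *Foxp2* passed the threshold whichever library was left out. Limma with a single prior variance, without a trend over expression, called 0 of the 10, with 7 at an unadjusted p below 0.05 and a smallest adjusted p of 0.0683. That limma fit called 0 of all 14323 genes tested, with 3339 at an unadjusted p below 0.05 and a smallest adjusted p of 0.0592.

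**Figure D3:**
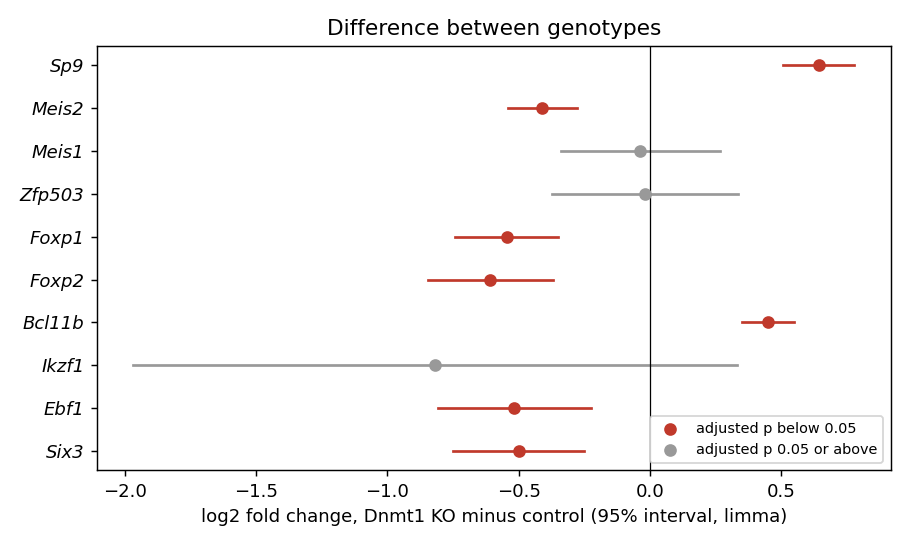
Log2 fold change of each regulator, *Dnmt1* KO minus control, with its 95% interval from limma (points and bars, red where the adjusted p is below 0.05). The intervals of *Sp9* and *Bcl11b* lie above 0, those of *Meis2*, *Foxp1*, *Foxp2*, *Ebf1* and *Six3* below 0, and that of *Ikzf1* is the widest.

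To compare levels between genes, normalized counts were divided by the length in kb of the transcript with the longest coding sequence. On this scale of normalized counts per kb, *Bcl11b* led in control cells with 386 and 382, followed by *Meis2* with 279 and 281 and *Sp9* with 202 and 203. *Six3* came next with 84.9 and 102. *Foxp1* with 62.5 and 67.8, *Foxp2* with 55.9 and 49.7 and *Ebf1* with 53.8 and 44.5 followed, and the values of *Foxp2* and *Ebf1* overlapped. *Zfp503* had 26.5 and 33.3, *Meis1* 20.1 and 20.8 and *Ikzf1* 1.93 and 5.77 per kb. In *Dnmt1* KO cells, *Sp9* with 314 and 318 stood above *Meis2* with 208 and 214, while *Bcl11b* remained first with 530 and 520 per kb.

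The dopamine receptors that define mature striatal projection neurons had few counts in these libraries, while other genes of these neurons were abundant. *Drd1*, the dopamine receptor of the direct pathway, had 13.4 and 15.3 normalized counts in control and 5.92 and 3.28 in *Dnmt1* KO libraries, and with the muscarinic receptor gene *Chrm4*, the opioid precursor gene *Pdyn* and the orphan receptor gene *Gpr6* it was below the filter and not tested. These 4 genes were named after their values were seen. *Drd2*, the receptor of the indirect pathway, had 16.1 and 11.2 normalized counts in control and 14.8 and 5.46 in *Dnmt1* KO libraries. *Ppp1r1b*, which encodes the striatal phosphoprotein DARPP-32, had 53.7 and 26.5 against 30.6 and 15.3 and is likewise outside the naming rule. In control libraries, *Pde10a* with a mean of 511 normalized counts, *Adcy5* with 428 and *Arpp21* with 193 were well above these.

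Beyond the 10 regulators, 27 other genes of the LGE and of striatal neurons were listed, of which 23 were tested. Of these, 4 were higher, 4 lower and 15 did not pass the threshold, with a median log2 fold change of -0.093. Without *Dnmt1* KO replicate 2, 5 were called, 1 higher and 4 lower, and DESeq2 gave the same tally.

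Of 8 genes of LGE progenitors, 1 was higher and 1 lower. *Pax6*, a progenitor factor shared with cortical radial glia and on the radial glia list too, fell from 648 and 679 to 414 and 427 normalized counts (log2 fold change -0.66, adjusted p = 7.96e-05 from limma). *Etv1*, an ETS factor of the LGE, was just past the threshold (log2 fold change 0.37, adjusted p = 0.0498 from limma), and the call was lost with any 1 of the 4 libraries left out, at limma's adjusted p from 0.117 to 0.155.

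In the direct pathway list, the 2 tested genes moved apart. *Isl1*, a LIM-homeodomain factor of direct pathway neurons that is also made in cholinergic neurons of the MGE, fell from 399 and 499 to 288 and 216 normalized counts (log2 fold change -0.84, adjusted p = 0.000639 from limma). *Tac1*, the precursor of substance P, rose from 51.9 and 42.9 to 81.9 and 91.8 (log2 fold change 0.86, adjusted p = 0.0141 from limma), and the call was lost without control replicate 2 (limma's adjusted p = 0.101) or *Dnmt1* KO replicate 2 (limma's adjusted p = 0.0668). Of the indirect pathway genes, *Penk*, *Drd2* and *Adora2a* were tested and none passed with limma, whose 95% intervals all held 0. DESeq2 gave *Penk* an adjusted p of 0.904 and set none for *Drd2* and *Adora2a*. *Penk*, the enkephalin precursor, had 33.1 and 34.7 normalized counts in control and 32.6 and 22.9 in *Dnmt1* KO libraries.

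Of 10 genes used by projection neurons of both pathways, 2 were higher, 2 lower and 6 did not pass. *Bcl11a*, the paralog of *Bcl11b*, rose from 2611 and 2508 to 3283 and 3426 normalized counts (log2 fold change 0.39, adjusted p = 9.09e-05 from limma). *Foxp4*, the paralog of *Foxp1* and *Foxp2*, fell from 678 and 681 to 458 and 440 (log2 fold change -0.60, adjusted p = 0.000143 from limma). Both therefore had the direction of their listed paralogs. *Arpp21*, which encodes a cAMP-regulated phosphoprotein of the striatum, fell by 0.81 on the log2 scale (limma's adjusted p = 0.00159), and the adenylyl cyclase gene *Adcy5*, named here after its values were seen, was just past the threshold (log2 fold change 0.30, adjusted p = 0.0431 from limma). That call was lost when control replicate 1 was omitted (adjusted p = 0.228 from limma) or *Dnmt1* KO replicate 2 (adjusted p = 0.233 from limma). *Pde10a*, a phosphodiesterase gene of striatal neurons, had 552 and 471 against 514 and 585 normalized counts, with overlap between genotypes.

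Paralogs and cofactors of the regulators were listed as well, 22 genes of which 17 were tested, 2 higher and 4 lower, with a median log2 fold change of -0.24. *Bcl11a*, *Foxp4*, *Ikzf2* and *Sp8* are on this list and among the LGE and striatal genes. *Pbx3*, which encodes a DNA-binding partner of MEIS proteins, fell from 747 and 681 to 424 and 492 (log2 fold change -0.64, adjusted p = 0.000209 from limma). *Ebf3*, a paralog of *Ebf1*, fell from 142 and 207 to 70.0 and 77.6 normalized counts (log2 fold change -1.21, adjusted p = 0.000468 from limma). *Six5* fell to a low level, from 51.0 and 29.6 to 16.8 and 10.9, with an adjusted p of 0.0185 from limma that was 0.208 without control replicate 1. *Ikzf4*, a paralog of *Ikzf1*, and *Sp8*, the paralog of *Sp9*, were named after their values were seen. *Ikzf4* was higher in *Dnmt1* KO cells (log2 fold change 0.40, adjusted p = 0.0403 from limma), and its adjusted p was 0.0504 without control replicate 1, 0.23 without control replicate 2 and 0.326 without *Dnmt1* KO replicate 1. *Sp8* had 87.7 and 93.9 normalized counts in control and 61.2 and 60.1 in *Dnmt1* KO libraries, without overlap, and did not pass (log2 fold change -0.57, adjusted p = 0.0635 from limma). Its log2 fold change was opposite in sign to that of *Sp9*.

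**Figure D4:**
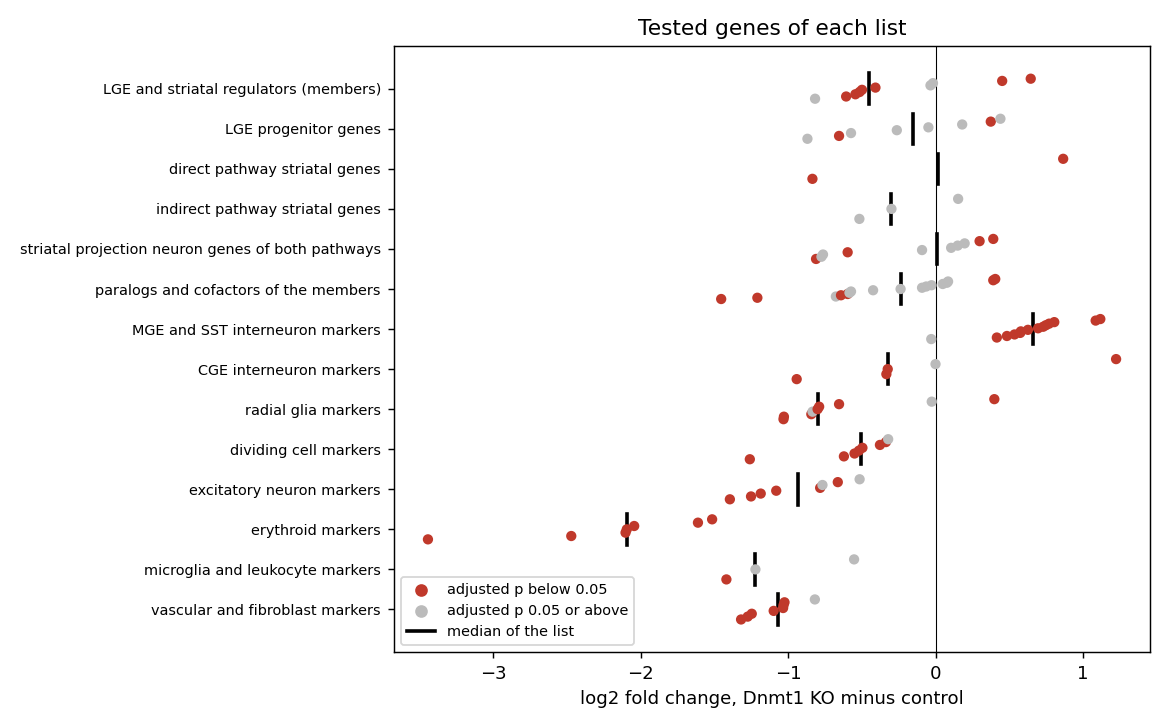
Log2 fold change of the tested genes in each list (points, red where limma's adjusted p is below 0.05) with the median of the list (black bar). The regulators lie on both sides of 0 with a median of -0.45, while 13 of 14 MGE and SST interneuron markers lie above 0 and all tested excitatory, erythroid, microglial, vascular and dividing cell markers below 0.

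Beside the LGE, markers of the caudal ganglionic eminence were checked, since *Meis2* and *Sp8* are also made there. The values of *Nr2f1*, its most abundant marker, were 1648 and 1534 against 1674 and 1508 and overlapped. Of 6 such markers 5 were tested, with 1 higher and 3 lower. *Nr2f2* fell from 1487 and 1571 to 1231 and 1208 normalized counts (log2 fold change -0.33, adjusted p = 0.0021 from limma), and *Prox1* and *Calb2* were lower by 0.33 and 0.94 on the log2 scale. *Htr3a* was higher at low counts, with 9.84 and 14.3 against 26.6 and 31.7, and *Vip* had 0 reads. With 1 library left out, *Nr2f2* passed in all 4 fits, while *Prox1* lost the call without either control library or *Dnmt1* KO replicate 2 (limma's adjusted p up to 0.158), *Calb2* without either control library (up to 0.0922) and *Htr3a* without any 1 library (up to 0.201). The 5 regulators that fell thus moved in the direction of most markers of other cells, whose part in the falls was not tested, and *Sp9* and *Bcl11b* moved in the direction of the SST interneuron markers, whose part in the rises was not tested either.

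**Figure D5:**
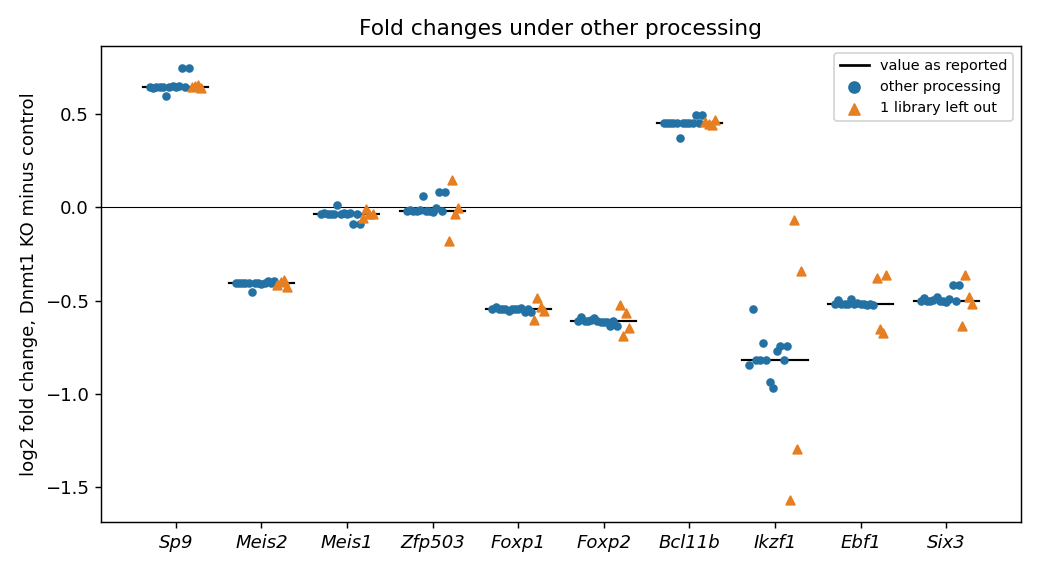
Log2 fold change of each regulator as reported (black line), under other processing (blue points) and with 1 library left out (orange triangles). *Sp9* and *Bcl11b* stay above 0 and *Meis2*, *Foxp1*, *Foxp2*, *Ebf1* and *Six3* below 0 throughout, *Zfp503* and *Meis1* change sign, and *Ikzf1* ranges from -1.57 to -0.069.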

How the data were processed

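RNA sequencing of tdTomato-positive cells from the E14.5 basal telencephalon was analysed in 2 control and 2 *Dnmt1* KO libraries, grouped and numbered by the sample labels. The authors used Trim Galore, STAR and Salmon on GRCm39, and they deposited a DESeq2-normalized count for each gene and library. Each deposited signal value equals whole reads over a factor of its library, since 100% of 89965 values above 0 were whole multiples to within 0.0001 of a read.

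Genes averaging 10 or more normalized counts were compared after adding 1 and taking log2. The tool was limma 3.58.1 under R 4.3.3 (eBayes, trend = TRUE), with genotype as the only term and Benjamini-Hochberg adjustment over 14323 genes. Fold changes are on this scale, which understates changes of low genes. Gene positions came from GENCODE on GRCm39. Alternatives were other pseudocounts, filters and scalings, limma without the variance trend, limma-voom, edgeR 4.0.16 and DESeq2 1.42.0 on whole recovered reads, correction for transcript length and GC content, a replicate block, and fits lacking 1 library. When a library was left out, the single library of that genotype was assumed to vary like the others. The fit was tested on simulated counts in which few or no genes changed and all genes had the same spread beyond counting noise. That setting is simpler than these data, so it does not check the calls made here. The regulators and gene lists were chosen with earlier results of these data known. By rule, named genes were the regulators, *Dnmt1*, *Sst*, *Lhx6*, *Nkx2-1* and *Gad1* and, in each other list, up to 3 of the most abundant and up to 3 of the most changed called genes. Those that bear on the regulators are given, and some genes under the rule are not reported here. Embryos came from different litters per the study's methods, but which litters entered which pool is not stated. The p-values therefore concern the spread between these pools, and limma's also rest on a prior variance taken over other genes of similar level. With that prior, limma's test had a median of 15.1 degrees of freedom.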

Additional observations from a re-analysis of the deposited data

How the results depend on the processing

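For the 10 regulators, 152 of 169 values under other settings kept their direction and their side of the threshold. *Ikzf1* under DESeq2, which had no adjusted p, was counted among them as not called. Limma without a variance trend called 0 of the 10 regulators, 0 of the 23 other LGE and striatal genes and 0 genes in all, while 7, 10 and 3339 of them had an unadjusted p below 0.05 and the smallest adjusted p over all genes was 0.0592. DESeq2 called 1184 genes in all, against 2476 with limma, 5 of the other LGE and striatal genes, against 8, and 5 of the regulators. When 1 library was omitted, 1525 to 2205 genes were called in all, the lowest number without control replicate 2, along with 6 to 7 of the regulators and 5 to 8 of the other LGE and striatal genes. Without control replicate 1, 1648 genes were called. The sign of *Meis1* changed with quantile normalization, to 0.0085, and that of *Zfp503* with quantile normalization, to 0.058, with the length and GC trend removed, with or without the replicate block, to 0.078, and with libraries left out, over a range of -0.18 to 0.15. The cause of these changes was not tested. With the replicate number as a block, 7 regulators, 8 other LGE and striatal genes and 2957 genes in all were called. Deviations of same-numbered libraries correlated at 0.0157 over 8418 genes, and the labels name no shared litter or day, so the numbers are not taken to pair the libraries. The study's supplement numbers the *Dnmt1* KO libraries otherwise than the labels, so the block rests on an uncertain number. With a minimum mean normalized count of 50, *Ikzf1* was not tested, and at 7 to 34 reads per library its depth does not allow a statement on direction.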
